A study of Homo sapiens with 4 samples.

Results

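Genes of the chromatin remodelling complexes, together with genes of the bromodomain and ARID families that work beside them, were followed in K562 cells before and after hemin treatment. Members were chosen by symbol alone: the SMARC, ARID, CHD, BAZ, BRD, INO80 and ACTL6 series, plus PBRM1, BPTF, SRCAP and EP400. The rule found 53 of the 61498 genes in the files. No measured value entered it, but the members were chosen with earlier results of these data known. K562 is an established human erythroleukaemia cell line that carries both erythroid and megakaryocytic potential. The study compared untreated cells, in 2 libraries, with cells kept in 50 µM hemin for 108 h, in 2 libraries, and sequenced their poly(A) RNA in reads of 50 bases. Hemin, an iron-containing porphyrin, pushes these cells toward the erythroid state. All libraries came from this single leukaemic line, so untransformed erythroid cells are not represented.

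Nucleosome remodellers are large machines built around an ATPase of the SNF2 family, which uses ATP to slide, eject or exchange histones on DNA. The SWI/SNF (BAF) complexes open regulatory DNA, the ISWI complexes space nucleosomes, the CHD family includes the ATPases of the NuRD repressor, and the INO80 and SRCAP groups exchange the histone variant H2A.Z. Bromodomains bind acetylated lysine on histones, and the BET proteins use them to hold the transcription machinery at active genes. In red cell precursors, SMARCA4 is needed for globin gene activation, and NuRD is a known repressor of the fetal globin genes.

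Values start from the expected counts that RSEM estimated for each gene. Their totals were 7801824 for untreated replicate 1, 7455447 for untreated replicate 2, 7513843 for hemin replicate 1 and 8241534 for hemin replicate 2. Between 12.8% and 13.6% of these counts lay on mitochondrial genes. The labelled cell type was checked with markers. GATA1 had 886 to 931 counts, TAL1 618 to 650 and TFRC 4541 to 5680 across the 4 libraries. The lymphoid markers CD3E and MS4A1 were at 0 in every library, which allows up to 3 counts each, and the monocyte markers CD14, CSF1R and FCN1 had at most 3 counts. Of the epithelial and stromal markers, EPCAM had 288 to 319 counts and COL1A2 72 to 121, while KRT5 had at most 1. In bulk RNA, fewer cells of a type and less RNA per cell cannot be told apart. The labels do not say whether replicates were separate cultures, so the p-values measure the spread between these libraries only.

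Counts were scaled by the TMM method and compared with edgeR's quasi-likelihood test over the 14458 genes that passed its filter, and a gene was called at an adjusted p under 0.05. Fold changes are log2 values of hemin over untreated, and CPM are counts brought to a common library total after TMM scaling. Of the 53 members, 50 could be tested, and in hemin 12 were called higher, 1 was called lower and 37 were not called. Across all genes tested, 7.0% were called higher and 7.14% lower, against 24.0% of the tested members higher. Members were better counted than the average gene, with a median of 640 counts per library against 177. Among the 6826 genes with a mean of at least 200 counts, a limit chosen after the values were seen, 13.0% were called higher and 8.85% lower, while 12 of the 44 members above that limit were called higher, or 27.3%, and 0 lower. When scaled by library size only, without TMM factors, 8 members were called higher and 4 lower, beside 5.04% and 9.39% of all genes.

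The changes were small. The median log2 fold change over the 50 tested members was 0.12, against -0.00481 over all genes tested and 0.03 over the genes with at least 200 counts. Among the tested members, 36 had a positive fold change and 14 a negative one, while 49.1% of all genes were positive. In 29 members both hemin libraries lay above both untreated libraries, 58.0% against a background of 28.1%, and in 11 both lay below, against a background of 29.3% of all genes. An unadjusted p under 0.05 was found for 23 members in the higher direction and 6 in the lower, beside 14.8% and 14.6% of all genes. SMARCC1, CHD4 and ARID1B alone among the 13 called members stayed past the threshold when any single library was left out. On TPM, which also follow each library's transcript lengths, the groups stayed apart for 7 of the 12 members called higher and for the 1 called lower, and overlapped for ARID1B, BRD2, CHD7, SMARCA4 and SRCAP. Over all 50 tested members, TPM were higher in hemin without overlap for 17, lower for 12, and overlapped for 21. The TPM share over all genes is not given here.

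**Figure D1:**
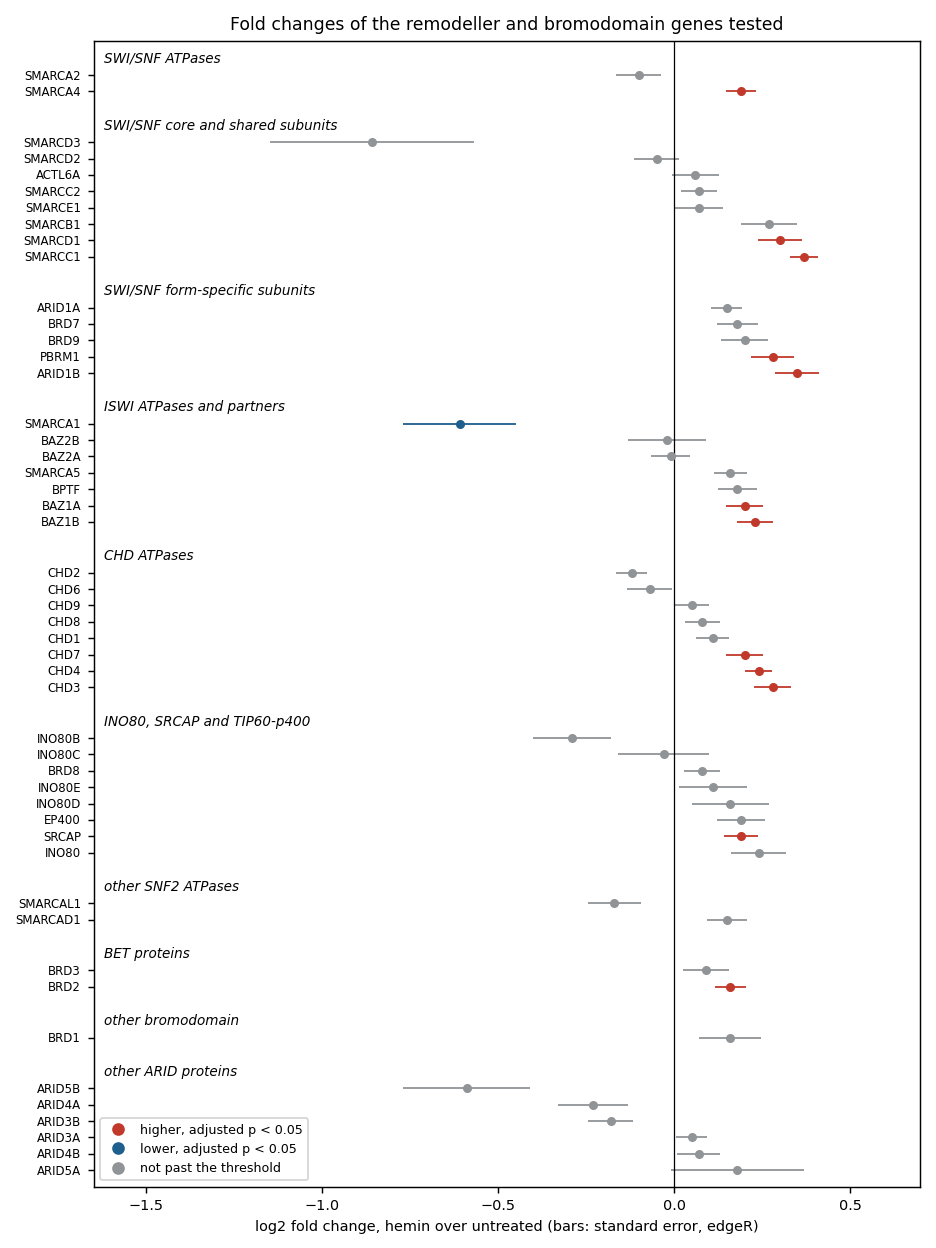
Log2 fold change of hemin over untreated for the tested members reported here, grouped by role. Bars are standard errors derived from the fold change and the F statistic of edgeR's test. Fold changes run from -0.86 for SMARCD3 to 0.37 for SMARCC1, and the 13 called members are marked.

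**Figure D2:**
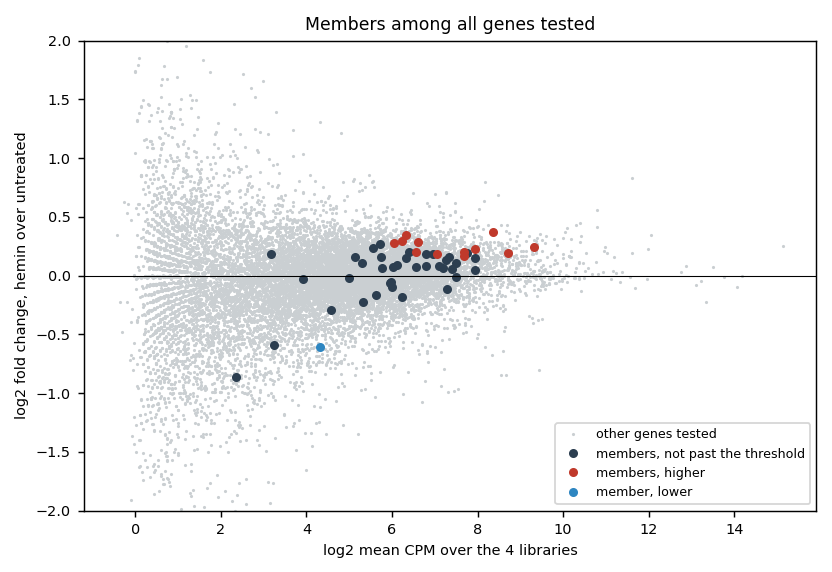
Log2 fold change against mean level for all 14458 genes tested, with the members on top. The members sit toward the higher levels with a median of 0.12, and 56 genes lie beyond the plotted range of 2 in either direction.

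SWI/SNF subunits made up 16 members, of which 15 were tested, 5 were called higher and 0 lower, with a median log2 fold change of 0.18. That is 33.3% called higher, beside 7.0% of all genes tested and 13.0% of those with at least 200 counts. SMARCC1, the BAF155 scaffold around which the complex assembles, lies on the minus strand at chr3:47585269-47782106 (GRCh38) and had the smallest p of all members. It had 2276 and 2121 expected counts in the untreated libraries and 2726 and 2992 in the hemin libraries, or 288 and 283 CPM against 368 and 371. Both hemin libraries stood well above both untreated ones. The log2 fold change was 0.37 with an SE of 0.04 and an adjusted p of 6.74e-04, and leaving out a library raised that p to 0.00801 at most. SMARCC2, the related scaffold BAF170, had overlapping groups, with 146 and 142 CPM untreated and 145 and 155 CPM in hemin.

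SMARCA4 (BRG1) and SMARCA2 (BRM) are the alternative ATPases of SWI/SNF, and each complex holds a single copy of either. SMARCA4, on the plus strand at chr19:10960932-11079426, had 3073 and 2990 counts untreated and 3269 and 3714 in hemin. In CPM these were 389 and 399 against 441 and 460, with no overlap. It rose by a log2 fold change of 0.19 (SE 0.042, adjusted p = 0.0160). The call was lost without untreated replicate 1, at an adjusted p of 0.0862, and without hemin replicate 2, at 0.0618. SMARCA2 was lower in hemin without overlap, at 65.2 and 67.8 CPM against 61.1 and 63.3, but its fold change of -0.10 was not called (adjusted p = 0.365).

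Members with a paralogue in the same place in the complex are better compared per length. SMARCA4 made up 76.3% and 77.8% of the TPM summed over both ATPases in the untreated libraries and 81.4% and 84.4% in hemin. The means were 77.1% ± 1.06 and 82.9% ± 2.16 (SD, n = 2 libraries each). These groups did not overlap, but an exact two-sided permutation test of 2 against 2 libraries cannot go below p = 0.333, so no share was tested. SMARCA2 also shifted in effective length, RSEM's length of the transcripts in use, which was 2145 and 2462 bases untreated and 2717 and 3200 bases in hemin. A longer effective length lowers TPM at the same count, so its TPM of 42.9 and 38.1 against 30.9 and 26.9 moved further than its counts did.

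SMARCD1, SMARCD2 and SMARCD3 encode the alternative BAF60 subunits, which connect the complex to transcription factors. SMARCD1, on the plus strand at chr12:50085200-50100707, had 558 and 488 counts untreated and 628 and 665 in hemin. Its CPM values of 70.6 and 65.2 against 84.7 and 82.4 did not overlap, and the log2 fold change was 0.30 (SE 0.063, adjusted p = 0.0148). Without untreated replicate 2 the adjusted p was 0.0838. SMARCD3 moved the other way at low counts, with 46 and 55 counts untreated and 20 and 36 in hemin. Its fold change of -0.86 (SE 0.29), the largest of all members in size, was not called at an adjusted p of 0.0777. RSEM's division of shared reads left its count uncertain by a posterior SD of up to 14.3%. SMARCD2 gave -0.05, with hemin libraries slightly below untreated ones. Of the TPM summed over the SMARCD genes, SMARCD1 took 37.8% and 44.7% untreated and 53.6% and 53.1% in hemin, while SMARCD3 took 6.0% and 9.27% untreated and 2.53% and 3.88% in hemin.

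Among the other shared subunits, SMARCB1 (SNF5), a tumour suppressor of the BAF core, stood just outside the threshold with a fold change of 0.27 (adjusted p = 0.0505) and 45.1 and 49.7 CPM against 59.5 and 54.9. SMARCE1 (BAF57) and ACTL6A (BAF53A), an actin-like subunit, gave 0.07 and 0.06. The neuronal ACTL6B had 1 and 0 counts untreated and 1 and 1 in hemin, too few to test.

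The form-specific subunits decide which kind of SWI/SNF complex is built. Both hemin libraries lay above both untreated ones for all 5 of them, as for 28.1% of all genes tested. In this short list 2 of the 5 were called higher, or 40.0%. The share was 7.0% of all genes tested and 13.0% of those with at least 200 counts. ARID1B, on the plus strand at chr6:156776020-157210779, is the alternative to ARID1A in canonical BAF. It had 582 and 506 counts untreated and 670 and 723 in hemin, or 73.6 and 67.6 CPM against 90.3 and 89.6. Its log2 fold change was 0.35 (SE 0.062, adjusted p = 0.00708), and the adjusted p reached at most 0.0454 with a library left out. ARID1A gave 0.15 at an adjusted p of 0.0510, with 237 and 228 CPM against 262 and 254. The share of ARID1A in the TPM of the pair stayed within an overlapping range, at 67.2% and 69.0% untreated and 66.2% and 68.8% in hemin.

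PBRM1, the polybromo subunit that marks PBAF complexes, rose from 59.3 and 60.4 CPM to 71.5 and 73.9 CPM without overlap. Its log2 fold change was 0.28 (adjusted p = 0.0171), and the adjusted p was 0.0807 without untreated replicate 1, 0.0604 without untreated replicate 2 and 0.0760 without hemin replicate 2. In DESeq2 it was 0.0659. BRD7, also of PBAF, and BRD9, of the non-canonical complex, gave 0.18 and 0.20 and were not called (adjusted p of 0.0690 and 0.0831).

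**Figure D3:**
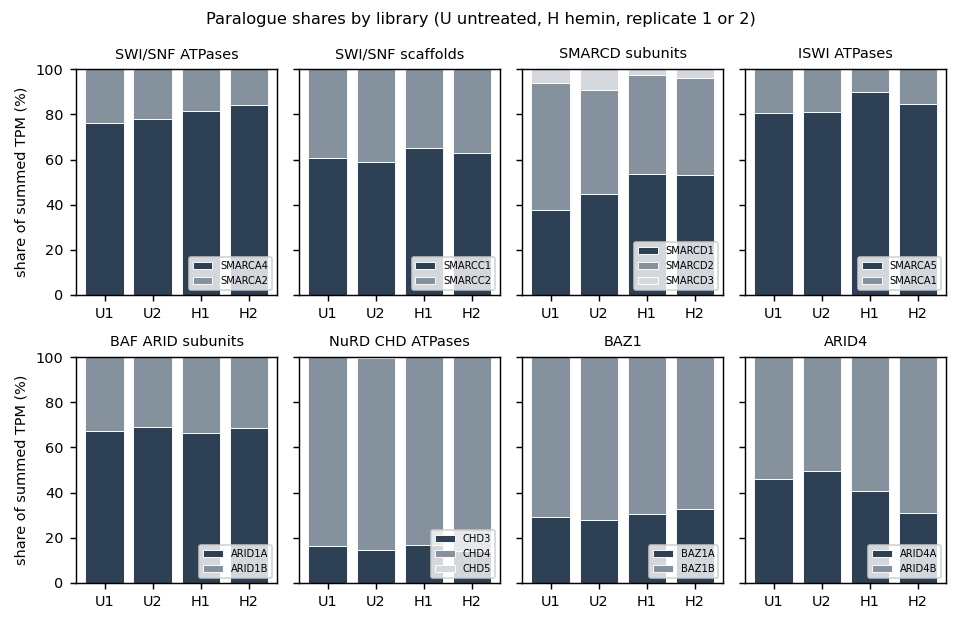
Stacked bars give the share of summed TPM, in percent, taken by paralogous members in each of the 4 libraries (U untreated, H hemin). SMARCA4, SMARCD1 and SMARCA5 take a larger share of their groups in both hemin libraries, whereas the shares of ARID1A and CHD4 overlap between conditions.

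ISWI complexes pair an ATPase with a large partner protein, and 7 members belong to them, of which 2 were called higher and 1 lower, with a median of 0.16. In this short list that is 28.6% and 14.3%, beside 7.0% and 7.14% of all genes tested. SMARCA5 (SNF2H) and SMARCA1 (SNF2L) are the alternative ATPases, and SMARCA1 was the single member called lower. The stretch of 250 bases upstream of the annotated start is shown for both ATPases and for BAZ1B, a partner of SMARCA5 that was called higher, because the fold changes of the ATPases, given below the sequences, had opposite signs. The sequences are from RefSeq (GRCh38.p14), written 5′ to 3′ on the gene's strand with CG dinucleotides in capitals. They lie at chr4:143513452-143513701 on the plus strand for SMARCA5, chrX:129523491-129523740 on the minus strand for SMARCA1 and chr7:73522294-73522543 on the minus strand for BAZ1B.
SMARCA5: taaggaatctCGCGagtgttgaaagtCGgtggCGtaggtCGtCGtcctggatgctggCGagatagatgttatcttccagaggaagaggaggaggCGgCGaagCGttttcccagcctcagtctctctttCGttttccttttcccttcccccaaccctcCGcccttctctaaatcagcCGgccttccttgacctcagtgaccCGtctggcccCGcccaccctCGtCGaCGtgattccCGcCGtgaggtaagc
SMARCA1: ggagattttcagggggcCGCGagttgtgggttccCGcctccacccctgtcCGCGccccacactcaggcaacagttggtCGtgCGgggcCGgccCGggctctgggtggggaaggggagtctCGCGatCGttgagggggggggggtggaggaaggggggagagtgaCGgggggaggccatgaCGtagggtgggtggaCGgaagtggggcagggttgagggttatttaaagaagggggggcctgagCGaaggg
BAZ1B: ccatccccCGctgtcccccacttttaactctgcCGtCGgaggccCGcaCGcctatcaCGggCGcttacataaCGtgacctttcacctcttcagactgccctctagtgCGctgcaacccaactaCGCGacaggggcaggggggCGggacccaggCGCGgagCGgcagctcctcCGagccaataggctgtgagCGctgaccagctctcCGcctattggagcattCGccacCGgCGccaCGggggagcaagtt
These stretches hold 20 CG dinucleotides for SMARCA5, 16 for SMARCA1 and 22 for BAZ1B.

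SMARCA1, on the minus strand at chrX:129446501-129523500, had 190 and 182 counts untreated and 95 and 151 in hemin. In CPM these were 24.0 and 24.3 against 12.8 and 18.7, so the hemin libraries were both lower but differed from each other more than the untreated pair did. Its log2 fold change was -0.61 with an SE of 0.16 and an adjusted p of 0.0317. The call was lost without untreated replicate 1 at an adjusted p of 0.105, without untreated replicate 2 at 0.119 and without hemin replicate 1 at 0.110, and DESeq2 gave 0.0583. SMARCA5 stood just outside the threshold at 0.16 (adjusted p = 0.0523), with 150 and 155 CPM against 167 and 174. Of the TPM summed over both ATPases, SMARCA5 took 80.6% and 80.9% untreated and 89.8% and 84.7% in hemin. The TPM of SMARCA5 itself overlapped, at 41.8 and 38.2 untreated and 41.2 and 38.1 in hemin, while that of SMARCA1 was 10.1 and 9.01 untreated and 4.70 and 6.90 in hemin.

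BAZ1B (WSTF), the partner of SMARCA5 in the WICH complex, rose from 228 and 225 CPM to 254 and 277 CPM. Its log2 fold change was 0.23 (adjusted p = 0.0167), with an adjusted p of 0.0647 without untreated replicate 1, 0.0803 without untreated replicate 2 and 0.0850 without hemin replicate 2. BAZ1A (ACF1), the partner of SMARCA5 in the nucleosome-spacing ACF and CHRAC complexes, had 89.0 and 86.4 CPM against 101 and 101. Its fold change of 0.20 was called at an adjusted p of 0.0328, but the call was lost whichever library was left out, with an adjusted p of 0.0858 without untreated replicate 1, 0.130 without untreated replicate 2, 0.0752 without hemin replicate 1 and 0.106 without hemin replicate 2. It was also lost in DESeq2 (0.132), under a replicate block (0.0501) and with library size only (0.0701). BPTF, the NURF subunit that reads trimethylated H3K4, gave 0.18 at an adjusted p of 0.0530. BAZ2A (TIP5), the NoRC subunit that silences ribosomal RNA genes, had overlapping groups at 186 and 178 CPM against 172 and 189, and BAZ2B overlapped as well, with fold changes of -0.01 and -0.02.

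**Figure D4:**
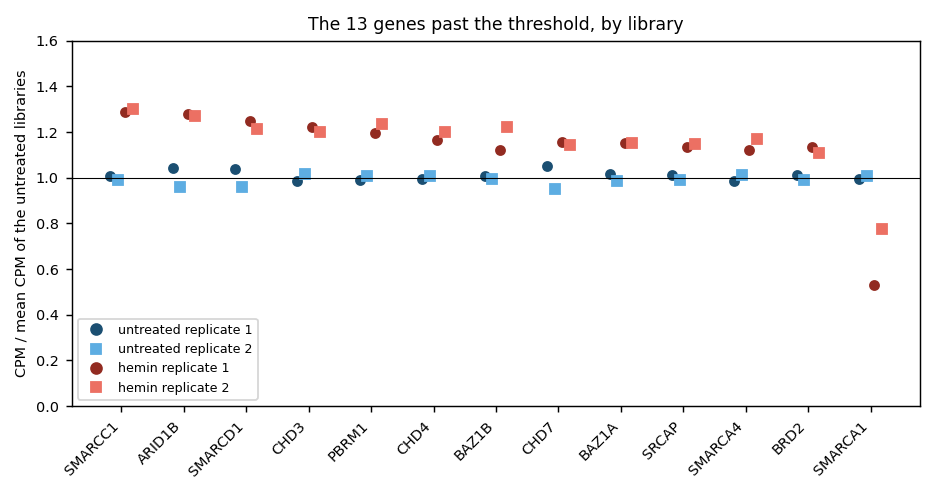
CPM in each of the 4 libraries divided by the mean CPM of the untreated libraries, for the 13 called members, on an axis that starts at 0. Untreated and hemin points do not overlap for any of the 13, and SMARCA1, at 24.0 and 24.3 CPM against 12.8 and 18.7, is the one below the line.

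CHD genes counted 9 members, of which 8 were tested, 3 were called higher and 0 lower, with a median of 0.09. The share called higher was 37.5%, beside 7.0% of all genes tested and 13.0% of those with at least 200 counts. CHD4 (Mi-2beta), the main NuRD ATPase, lies on the minus strand at chr12:6570082-6614524 and had the highest TPM of all members in untreated cells, 165 ± 4.45 (SD, n = 2 libraries). It had 4599 and 4401 counts untreated and 5053 and 5666 in hemin, or 581 and 588 CPM against 681 and 702. The log2 fold change was 0.24 (SE 0.039, adjusted p = 0.00458), and it stayed past the threshold with any library left out, at 0.0293 at most.

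CHD3 (Mi-2alpha), the alternative NuRD ATPase, is on the plus strand at chr17:7884796-7912760, with 687 and 671 counts untreated and 804 and 857 in hemin. The hemin libraries were both above the untreated ones after scaling as well, with a log2 fold change of 0.28 (SE 0.053, adjusted p = 0.00888). Without untreated replicate 1 the adjusted p was 0.0572. The share of CHD4 in the TPM of the NuRD ATPases overlapped, at 83.9% and 85.2% against 83.4% and 86.0%. CHD5, a neuronal gene, had 0 and 3 counts untreated and 3 and 1 in hemin and was not tested.

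CHD7, whose loss causes CHARGE syndrome, rose from 200 and 181 CPM to 220 and 218 CPM. Its fold change of 0.20 (adjusted p = 0.0352) was not called without untreated replicate 2 (0.158) or hemin replicate 2 (0.0606), nor with library size only (0.0782). CHD1 and CHD2, which accompany transcribing polymerase, gave 0.11 and -0.12, and both were free of overlap but not called. CHD6, CHD8 and CHD9 gave -0.07, 0.08 and 0.05.

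INO80, SRCAP and TIP60-p400 genes made up 8 members, of which 1 was called higher and 0 lower, with a median of 0.13. The 12.5% called higher lay near the 13.0% of genes with at least 200 counts, beside 7.0% of all genes tested. SRCAP, the ATPase that deposits H2A.Z, had 125 and 122 CPM against 140 and 142 without overlap, a fold change of 0.19 (adjusted p = 0.0310). That call was lost with any library left out, with an adjusted p of 0.0771 without untreated replicate 1, 0.122 without untreated replicate 2, 0.0579 without hemin replicate 1 and 0.116 without hemin replicate 2. It was lost as well in DESeq2 (0.101), under a replicate block (0.0509) and with library size only (0.0701). EP400 and INO80, the related ATPases, gave 0.19 and 0.24 and were not called (adjusted p of 0.0933 and 0.0693). The subunits of INO80 gave -0.29 for INO80B, -0.03 for INO80C, 0.16 for INO80D and 0.11 for INO80E, and none was called. BRD8, the bromodomain subunit of TIP60-p400, gave 0.08.

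Among the BET genes, BRD2, which holds transcription regulators at acetylated chromatin, was called higher. It had 196 and 192 CPM untreated and 220 and 215 CPM in hemin, a fold change of 0.16 (adjusted p = 0.0338). The call did not hold without untreated replicates 1 and 2 (0.0869 and 0.125) or hemin replicates 1 and 2 (0.118 and 0.0652), in DESeq2 (0.0743), under a replicate block (0.0522) or with library size only (0.0876). BRD3, which binds acetylated GATA1, gave 0.09 (adjusted p = 0.398), with 68.1 and 66.9 CPM untreated and 69.0 and 74.7 CPM in hemin. BRD1, a scaffold of histone acetyltransferases, gave 0.16 and was not called.

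Of the 2 other SNF2 ATPases, SMARCAD1, which helps restore silent chromatin after replication, gave 0.15, and SMARCAL1, which reanneals DNA at stalled forks, gave -0.17. Neither was called. Of the 7 remaining ARID genes 6 were tested and 0 were called, beside 7.0% of all genes higher and 7.14% lower. Their median was -0.07. ARID5B, a cofactor of the PHF2 demethylase, gave the lowest value among them, -0.59 at an adjusted p of 0.0570, with 97 and 78 counts against 52 and 65. ARID3B gave -0.18 and ARID4A, a retinoblastoma-binding protein of the SIN3 complex, gave -0.23, both with the hemin libraries below the untreated ones. ARID3A, ARID4B and ARID5A gave 0.05, 0.07 and 0.18. ARID3C had 1 count in a single untreated library and 0 in the others.

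**Figure D5:**
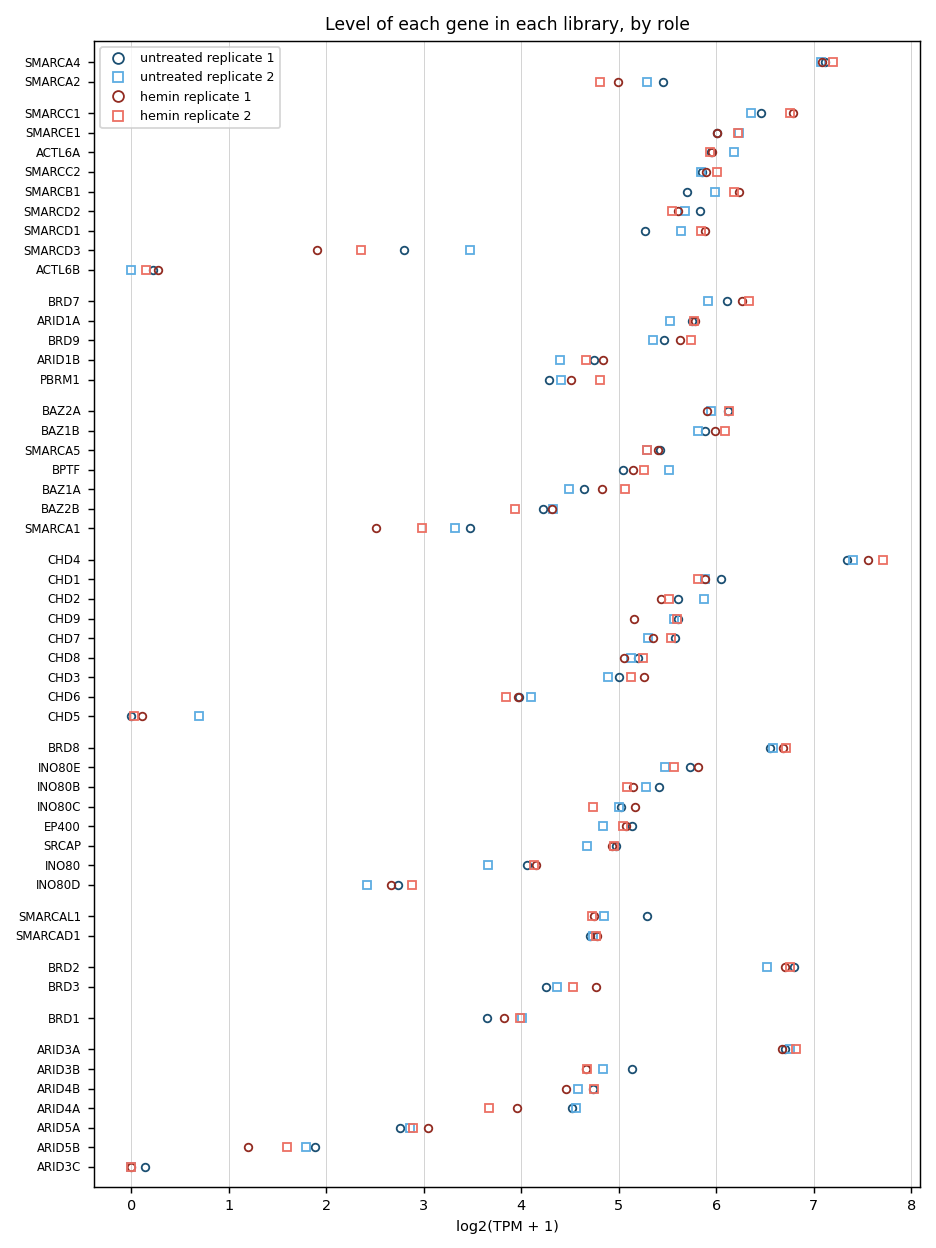
Level of the members reported here as log2(TPM + 1) in each of the 4 libraries, ordered by role. Untreated mean TPM run from 0.05 for ARID3C to 165 for CHD4, with a median of 38.3.

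Partners that the naming rule leaves out were taken from a list of further complex subunits, SNF2 ATPases and bromodomain proteins. Of 92 such genes 87 were tested, and 16 were called higher and 3 lower (18.4% and 3.45%), with a median of 0.10. Over all genes tested 7.0% were called higher and 7.14% lower, or 13.0% and 8.85% of those with at least 200 counts. TRIM24, a bromodomain corepressor, changed most among those called, with 842 and 806 counts untreated and 1101 and 1195 in hemin, a fold change of 0.47 (adjusted p = 5.1e-04, at most 0.00606 with a library left out). Among further SWI/SNF subunits 2 of 12 tested were called higher, among ISWI partners 3 of 6, among NuRD subunits 2 of 10, among INO80, SRCAP and TIP60-p400 subunits 4 of 24, and among other bromodomain genes 5 of 23. Genes called lower were 1 of the INO80, SRCAP and TIP60-p400 subunits, 1 of the 12 further SNF2 ATPases and 1 of the other bromodomain genes.

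BCL7B, a SWI/SNF subunit, rose by 0.45 (adjusted p = 0.0267, but 0.136 without untreated replicate 2, 0.0736 without hemin replicate 2 and 0.0846 in DESeq2). ACTR8, an actin-related INO80 subunit, had 0.38 (adjusted p = 0.0356) and lost its call with any library left out, with an adjusted p of 0.105 without untreated replicate 1, 0.122 without untreated replicate 2, 0.0573 without hemin replicate 1 and 0.145 without hemin replicate 2. Its call was lost too in DESeq2 (0.225), under a replicate block (0.0558) and with library size only (0.0520). HLTF, a fork-remodelling SNF2 protein, was called lower, at 134 and 139 CPM against 104 and 113, a fold change of -0.32 (adjusted p = 0.0067, at most 0.0454). The other genes called lower were BRWD3 at -0.25 (adjusted p = 0.0402, but 0.217 without untreated replicate 1, 0.108 without hemin replicate 2 and 0.101 in DESeq2) and MORF4L2 at -0.16 (adjusted p = 0.0263, but 0.0771 without untreated replicate 1, 0.106 without untreated replicate 2 and 0.114 without hemin replicate 1). ARID2, the PBAF subunit, gave 0.23 and CHD1L gave -0.12, and neither was called. BRDT, the testis BET gene, had 0 counts untreated and 1 and 2 in hemin.

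Promoters of the members were read from the RefSeq table, which held 42 of the 53, each as 250 bases before to 50 after the start. Their median number of CG dinucleotides was 29, against 26 over 10024 promoters of genes tested and 14 over all 27305 promoters. Motifs were searched on both strands and none contains another. The antioxidant response element TGACNNNGC, bound by NRF2 and the heme-sensitive BACH1, was found in 9.52% of member promoters, 15.3% of those of genes tested and 13.6% of all. The GATA motif AGATAA was in 7.14% of member promoters, 5.2% of those of genes tested and 10.5% of all. In the same order the E-box CACGTG was in 4.76%, 10.3% and 7.43%, the ETS motif CCGGAAGT in 4.76%, 9.43% and 4.44%, and the NRF1 motif GCATGCGC in 0.0%, 5.79% and 3.27%. The SMARCA5 sequence shown holds a GATA match. A match describes letters in the window, not a bound site.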

How the data were processed

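Poly(A) RNA of 2 untreated and 2 hemin-treated K562 libraries was sequenced. Per the labels and submitters' processing notes, the authors trimmed reads with Trimmomatic 0.39 and used STAR 2.7.5c and RSEM 1.3.1 on GRCh38. The deposited expected counts are RSEM's estimated counts per gene, not normalized, with reads shared between genes divided among them. The deposited TPM are scaled by effective length by the authors. RSEM's posterior mean counts and posterior SD were also deposited. Library totals ran from 7455447 to 8241534 counts. A count of 0 allows up to 3 counts, which covers counting error only. Over genes with at least 20 counts in a pair, chi-square averaged 1.83 between the untreated replicates and 2.24 between the hemin replicates, so none was a repeat deposit.

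Expected counts were rounded to whole numbers, filtered with filterByExpr, scaled by TMM and tested in edgeR 4.0.16 (R 4.3.3) by the quasi-likelihood test with no term besides condition and Benjamini-Hochberg adjustment over all 14458 genes tested. The common dispersion was 0.00118. Each SE given for a fold change is the absolute log2 fold change divided by the square root of the test's F statistic. The script was tested on simulated data. Gene positions came from GENCODE 44, in which all 53 members matched. Members and lists were chosen with earlier results of these data known. The rule for named genes gave counts, fold changes and errors in full for up to 6 called members in each direction, other members by value, and among partners the largest and smallest called fold changes plus ARID2, CHD1L and BRDT. The alternatives tried were DESeq2 1.42.0, limma 3.58.1 on log2(TPM + 1) or with 0.1 in place of 1, RLE factors or plain library size, no filter or at least 20 counts, a centred loess length correction (span 0.4), posterior mean counts, the replicate number as a block, and each library omitted in turn. The FPKM tables were not used here, and 1 member, though counted in the totals, is not reported here.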

Additional observations from a re-analysis of the deposited data

How the results depend on the processing

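With 12 members called higher and 1 lower in the quasi-likelihood fit, no filter gave 20 and 3 (4.51% and 4.07% of all genes tested), posterior mean counts 20 and 3 (9.22% and 9.29%), at least 20 counts 17 and 3 (9.79% and 10.0%), library size only 8 and 4, the length correction 15 and 2 (8.08% and 8.12%), RLE factors 16 and 1 (7.42% and 7.08%), and DESeq2 8 and 0 (4.89% and 3.93%, with 19 and 1 members at an unadjusted p under 0.05). limma on log2(TPM + 1) or log2(TPM + 0.1) called 0 members in either direction (at most 0.104% of all genes higher and 0.235% lower), with 8 higher and 4 lower at an unadjusted p under 0.05, and 0 partners, with 11 and 4. With a library left out, members called higher ranged from 5 (without untreated replicate 2) to 14, with 6 without untreated replicate 1 or hemin replicate 2, and those called lower from 0 to 3. Partners called higher were 16, with 9 in DESeq2 and 6 to 16 with a library left out, 6 of them without untreated replicate 2 and 8 without untreated replicate 1. Partners called lower were 3, and 1 to 2 with a library left out, the lowest without untreated replicate 1. The median of 0.119 became 0.08 with library size only and 0.034 with limma, and ranged from 0.095 to 0.136 with a library left out. The cause was not tested. In each fit with a library left out, a smaller share of all genes was called in either direction than in the main fit. No all-gene share at an unadjusted p is given for DESeq2 or limma, so those counts have no background beside them.

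The replicate block called 9 members higher and 1 lower (5.91% and 6.13% of all genes). Same-numbered deviations correlated at 0.00473 over genes. These deviations include counting error, so the value cannot settle whether same-numbered libraries were handled together, and the labels do not say.

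No called gene named here changed sign under these alternatives. On TPM with limma, uncalled members turned to -0.12 and -0.13 (ACTL6A), -0.05 (ARID4B), -0.07 and -0.08 (BPTF), -0.12 (CHD1), -0.02 (CHD8), -0.21 and -0.22 (CHD9), -0.01 (SMARCA5) and -0.0022 (SMARCE1). With a library left out, BAZ2A ranged from -0.09 to 0.06, BAZ2B from -0.17 to 0.15, INO80C from -0.09 to 0.03 and SMARCE1 from -0.0044 to 0.14. A library left alone in its group was assumed to vary like the others.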

Other observations

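RSEM's effective length follows the isoforms in use. It was longer in hemin for 32 of the 50 tested members and for 57.3% of all genes tested. The median log2 change was 0.045 in the members and 7.8e-06 over all genes tested. Among the tested members ARID4A moved most, from 2751 and 2686 bases untreated to 3098 and 4779 in hemin, a log2 change of 0.53. BRD3 moved the other way, from 5300 and 4739 bases to 3602 and 4597, a log2 change of -0.29. On log2(TPM + 1) the median change of the members was 0.03, against -0.03 over all genes tested.

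The tested members had a median effective length of 4022 bases, against 1980 over all genes tested. Across the 50 members, effective length and log2 fold change had r = 0.25 and rho = 0.30, and level and log2 fold change rho = 0.43. All points share the same 4 libraries.

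Of the TPM summed over ARID4A and ARID4B, ARID4A took 46.2% and 49.6% untreated and 40.8% and 31.1% in hemin, and these groups did not overlap.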
